A study of Mus musculus with 8 samples.

Results

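The genes described here fold proteins in the endoplasmic reticulum (ER) or sense and answer the load of unfolded protein there. They were taken from a list of 40 names, by matching each name to the gene symbol in the deposited count table, and 39 of the 40 were found among its 24537 genes. The remaining name, Selk, is an older symbol of the gene that the table lists as Selenok, so it fell outside the match and its values are given apart. All 39 passed the filter on low counts, which left 14728 genes to test.

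The ER takes in the proteins that a cell secretes or places in its membranes, folds them with chaperones and disulfide isomerases, and returns misfolded chains to the cytosol for degradation. A surplus of unfolded protein is sensed by 3 membrane proteins: IRE1, which splices the mRNA of the transcription factor XBP1; ATF6, which is cut in the Golgi to release a transcription factor; and PERK, a kinase of the translation factor eIF2α. PERK activity slows translation but favours ATF4, whose targets include the gene of CHOP (Ddit3), Trib3, Chac1 and Asns. Acinar cells of the pancreas secrete digestive enzymes in large amounts, carry an extensive ER and depend on XBP1, so this gene set is known to be strongly used there, as it is in antibody-secreting plasma cells.

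RNA came from EpCAM-positive cells sorted by FACS out of 8 pancreatic tumours, 1 tumour per FVB/NJ mouse. There were 4 KO-labelled tumours, from mice with the floxed allele of Lifr on each chromosome (f/f); Lifr codes for the receptor of leukaemia inhibitory factor. Of the 4 WT-labelled tumours, replicates 1 and 2 were f/+ and replicates 3 and 4 were +/+. Mice of both groups carried Trp53 f/f, Rosa26 LSL-Luc and Pdx1-Cre, whose promoter drives Cre in the epithelium of the developing pancreas, and were 44 to 49 days old.

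Counts summed to between 14938875 and 22698340 per tumour. Lifr itself was at 150 to 220 CPM (counts per 1000000, scaled by TMM) in the KO-labelled tumours, against 71.8 to 126 CPM in the WT-labelled ones, so the RNA does not show the labelled loss and every direction below rests on the labels. Reads were counted over all exons of the gene, and such a count need not show the loss of a floxed exon. Epcam, the antigen of the sort, was present in all 8 tumours, at 360 to 499 CPM in those labelled KO and 660 to 890 CPM in the WT-labelled ones. Of 15 epithelial markers 12 were lower in the KO-labelled tumours, and their mean log2 CPM was 6.74 to 7.14, against 7.55 to 8.11 in the WT-labelled ones. Krt18, Cdh1 and Krt7 led this list. All 14 macrophage markers were higher, led by Lyz2, Mrc1 and C1qa, with a mean log2 CPM of 9.74 to 10.05 in the KO-labelled tumours against 8.42 to 9.19 in the WT-labelled ones. Since neither range overlapped between the groups, the share of macrophage and epithelial RNA and the labelled genotype cannot be told apart.

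Some promoters of the set hold a known sequence of the ER stress response. The genes were listed by name for ER folding and stress, so the share below is a description and is not independent of that choice. In RefSeq promoter windows (GRCm38.p6, from 250 bases before to 50 after the gene start), 34 of the 39 genes had an entry; Hyou1, Manf, Ern2, Atf6 and Derl1 had none. The ER stress response element, known as the site where ATF6 or XBP1 acts beside the factor NF-Y, was searched on both strands as CCAAT and CCACG with 9 bases of any kind between them. It was found in 10 of the 34 genes, against 37 of 27025 genes in the whole table (0.137%, these 10 included). The stretches below show it in all 10, because they include the main chaperone genes and because their RNA is compared with acinar RNA further on. Each is written 5′ to 3′ on the gene's own strand with the element in capitals, and in Creld2, Calr, Ero1lb, Derl3 and the downstream match of Hsp90b1 the element lies on the opposite strand and begins with CGTGG.
Hspa5 (chr2:34772010-34772058, plus strand): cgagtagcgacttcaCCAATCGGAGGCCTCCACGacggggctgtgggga
Hsp90b1 (chr10:86705518-86705671, minus strand): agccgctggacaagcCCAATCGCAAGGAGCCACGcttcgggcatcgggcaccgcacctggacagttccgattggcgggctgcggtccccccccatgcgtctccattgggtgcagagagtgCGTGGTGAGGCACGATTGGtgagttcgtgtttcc
Dnajc3 (chr14:118937812-118937860, plus strand): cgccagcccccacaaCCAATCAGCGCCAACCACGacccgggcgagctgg
Creld2 (chr15:88819505-88819553, plus strand): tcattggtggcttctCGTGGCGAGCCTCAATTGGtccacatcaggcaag
Calr (chr8:84847060-84847108, minus strand): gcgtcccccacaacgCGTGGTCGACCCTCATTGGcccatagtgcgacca
Canx (chr11:50325785-50325833, minus strand): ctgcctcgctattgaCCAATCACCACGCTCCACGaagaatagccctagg
Pdia6 (chr12:17266476-17266524, plus strand): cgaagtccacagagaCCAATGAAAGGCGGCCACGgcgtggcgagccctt
Ero1lb (chr13:12565667-12565715, plus strand): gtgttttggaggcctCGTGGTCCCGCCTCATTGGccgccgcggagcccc
Derl3 (chr10:75893227-75893275, plus strand): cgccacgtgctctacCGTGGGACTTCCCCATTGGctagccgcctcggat
Syvn1 (chr19:6046517-6046565, plus strand): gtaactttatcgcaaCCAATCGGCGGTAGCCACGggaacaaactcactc

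Another element was found in 3 of the 7 PERK-branch genes and in 1 degradation gene. The ATF4 composite element, searched as TGATGNAAN on both strands, was in the windows of 4 genes (Trib3, Chac1, Asns and Herpud1), against 4.50% of all genes with a window. The 3 upstream matches are shown with the element in capitals, as it reads on the gene's strand; that of Trib3 lay downstream of the gene start.
Chac1 (chr2:119351033-119351071, plus strand): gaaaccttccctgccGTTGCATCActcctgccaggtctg
Asns (chr6:7693210-7693247, minus strand): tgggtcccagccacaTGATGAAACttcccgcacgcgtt
Herpud1 (chr8:94386301-94386339, plus strand): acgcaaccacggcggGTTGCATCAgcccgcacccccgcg
The cyclic AMP element TGACGTCA was in the window of Ppp1r15a alone (2.03% of all genes), and the XBP1 core TGACGTGG was in none of the 34 (0.714% of all genes). A match is a description of these letters, not a binding site or a cause.

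Between genes the levels spanned a wide range, compared here per kilobase in the FPKM values the authors deposited. Calr, the luminal lectin chaperone calreticulin, was highest, at 290 ± 62.3 FPKM in KO-labelled tumours and 264 ± 45.3 FPKM in the WT-labelled ones (SD, n = 4 each). P4hb, Hsp90b1, Hspa5, Pdia3 and Xbp1 followed, with means over the 8 tumours of 245, 229, 217, 180 and 132 FPKM. The sensors were low: Eif2ak3 averaged 16.5, Ern1 11.4, Atf6 8.54 and Ern2 4.36 FPKM. Chac1 was lowest at 1.89 FPKM.

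Of the 39 genes, 5 were higher in the KO-labelled tumours and 2 were lower, and 32 did not pass the test (edgeR quasi-likelihood test, Benjamini-Hochberg adjusted p under 0.05 over all genes). The 5 were the chaperone genes Dnajc3 and Sdf2l1, the sensor gene Atf6, and Edem1 and Derl1 of ER-associated degradation; the 2 were Ern2, the epithelial form of IRE1, and Trib3. This was 12.8% of the set higher against 11.1% of all genes, and 5.13% lower against 10.8% of all genes, so the share called higher is near that of all genes. The log2 fold change, labelled KO minus labelled WT, was above 0 for 33 genes and below 0 for 6, with a median of 0.32 against 0.011 over all genes. An unadjusted p under 0.05 was reached by 17 of the 39 and by 36.0% of all genes. The groups did not overlap in 8 genes: Dnajc3, Canx, Ern1, Edem1, Derl1 and Ssr1 were higher in every tumour labelled KO (6 of 39, with 13.1% of all genes in this state), and Ern2 and Trib3 were lower (2 of 39, with 12.3% of all genes).

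**Figure D1:**
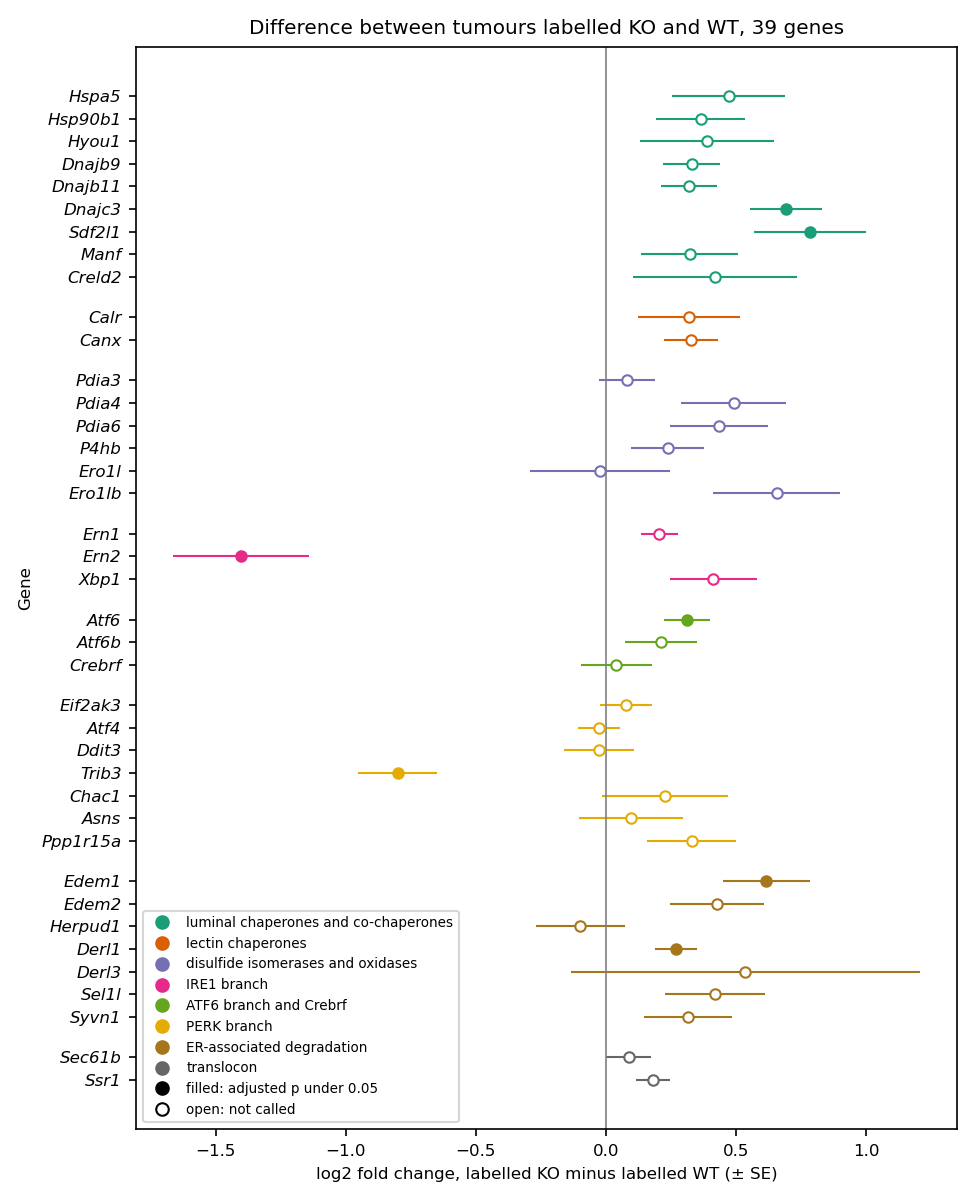
Log2 fold change of each of the 39 genes, labelled KO minus labelled WT, with its standard error (horizontal axis), by branch (colour) on the vertical axis. Filled points are the 5 genes called higher and the 2 called lower; most open points lie right of 0, and Ern2 and Trib3 lie far to the left.

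The number called depended on the libraries and the scaling. With any 1 tumour left out, between 1 and 14 genes were called higher, the 14 without KO replicate 4, and 2 were called lower each time. With library totals in place of TMM scaling the median of all genes moved to −0.17 and 1 gene was called higher; with scaling to the sum of the epithelial markers it moved to 0.89 and 37 were. The share of higher calls among all calls was 22.5% and 99.1% in those scalings, against 50.7% with TMM. Relative to the median of all genes, the median of the set was 0.30 and 0.31 in those scalings, and 0.31 with TMM. Rescaling moves all genes by nearly the same amount, so this value could hardly change and its constancy is no support. Over the other settings it ran from 0.086, with a score of acinar RNA (described below) in the model, to 0.39 without KO replicate 4. It was 0.15 without KO replicates 1 and 3.

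**Figure D2:**
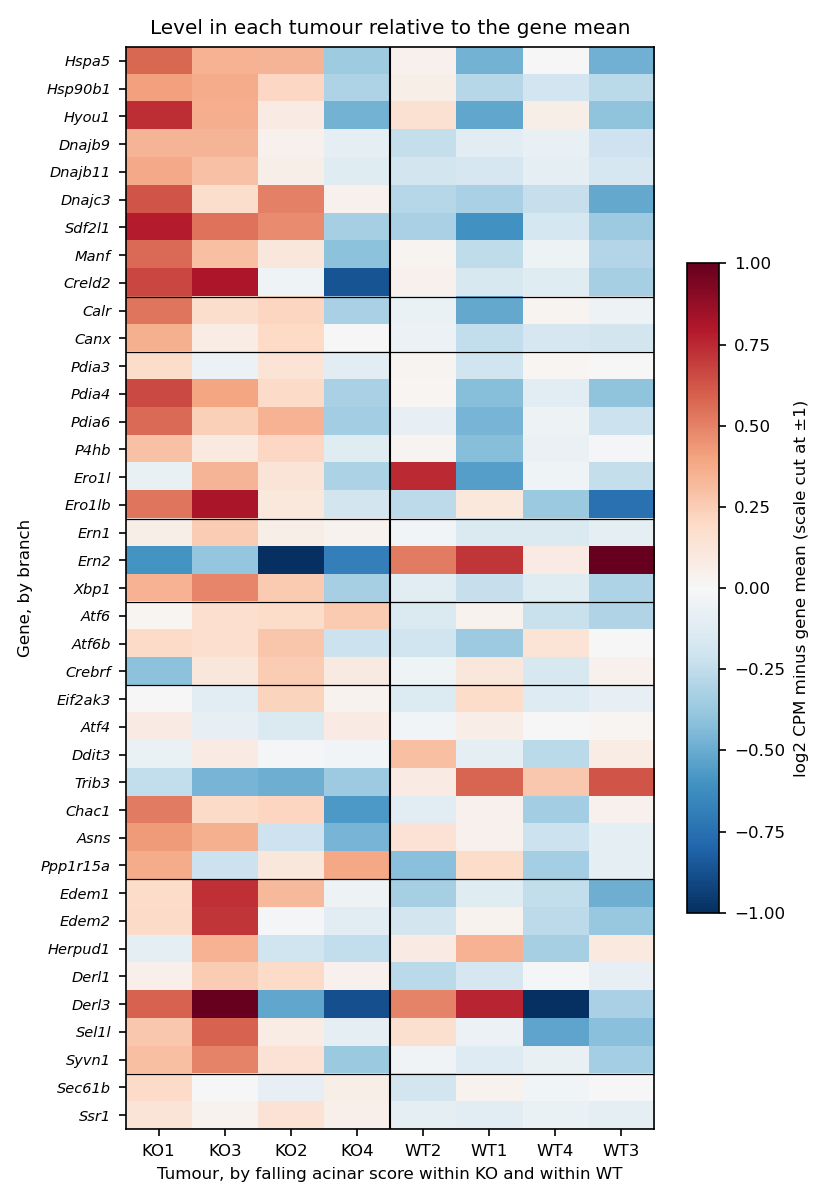
Log2 CPM of each gene in each tumour minus the gene's mean over 8 tumours (colour, cut at ±1), with KO-labelled tumours left of the WT-labelled ones and ordered by falling acinar score within each group. Most luminal chaperones are high in KO replicates 1, 3 and 2 and low in KO replicate 4, while Eif2ak3, Atf4 and Ddit3 of the PERK branch are not.

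Luminal chaperones hold nascent chains in the ER and prevent their aggregation. All 9 had a log2 fold change above 0, from 0.32 to 0.78, and 2 were called higher, where 11.1% of all genes were. Dnajc3, which codes for the co-chaperone P58IPK, was at 373, 343, 274 and 249 CPM in KO-labelled replicates 1 to 4, against 193, 199, 170 and 206 CPM in the WT-labelled ones. Every tumour labelled KO was above every tumour labelled WT. The difference was 0.69 ± 0.14 (log2, SE; edgeR adjusted p = 0.0108), and it was called with each of the 8 tumours left out (adjusted p = 0.0109 to 0.0359) and with each scaling tried.

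Sdf2l1 codes for a subunit of the chaperone complex around BiP. It was at 100, 80.5, 84.5 and 46.1 CPM in KO-labelled replicates 1 to 4, against 38.0, 46.3, 45.0 and 51.2 CPM in the WT-labelled ones. The first 3 KO-labelled tumours were above all the WT-labelled ones, while KO replicate 4 lay within their range. The difference was 0.78 ± 0.21 (log2, SE; edgeR adjusted p = 0.0322). The call remained without KO replicate 4 or WT replicate 4 and was lost without any of the other 6 tumours (adjusted p = 0.00832 to 0.0821 over all 8 omissions) and with library totals.

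The other 7 luminal chaperones did not pass, with log2 fold changes of 0.32 to 0.47 (edgeR adjusted p = 0.0622 to 0.377). Hspa5, which codes for BiP, the most central of the ER chaperones, was at 1425, 1210, 1220 and 747 CPM in KO-labelled replicates 1 to 4, against 690, 988, 685 and 956 CPM in the WT-labelled ones. As with Sdf2l1, only KO replicate 4 lay within the range of the WT-labelled tumours. Dnajb9 and Dnajb11 code for J-domain partners of BiP, and Manf for a secreted ER protein that binds it. Without KO replicate 4, Hspa5, Hsp90b1, Dnajb9, Dnajb11 and Manf were also called, at log2 fold changes of 0.62, 0.49, 0.40, 0.39 and 0.46. Hyou1, a large chaperone that acts on BiP, was at 143 to 329 CPM in KO-labelled tumours and 138 to 220 CPM in the WT-labelled ones, and Creld2, a secreted ER stress gene, at 31.4 to 100.8 and 45.5 to 59.0 CPM.

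Neither lectin chaperone, which bind glycans on folding proteins, passed the test. Canx (calnexin) was at 686, 616, 565 and 538 CPM in KO-labelled tumours against 452, 515, 473 and 478 CPM in the WT-labelled ones, a difference of 0.33 ± 0.10 (log2, SE; edgeR adjusted p = 0.0536). Its groups did not overlap. Calr differed by 0.32 ± 0.19 (log2, SE; edgeR adjusted p = 0.272), with overlap.

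The 6 disulfide isomerases and oxidases, which form and rearrange disulfide bonds, all missed the threshold (edgeR adjusted p = 0.0888 to 0.961). When KO replicate 4 was left out, Pdia4, Pdia6 and Ero1lb were called, at log2 fold changes of 0.63, 0.58 and 0.79. Ero1lb, an oxidase known for its use in the pancreas, had the widest difference, at 45.2, 33.6, 55.1 and 27.5 CPM in KO-labelled replicates 1 to 4 against 33.7, 26.0, 18.5 and 24.1 CPM in the WT-labelled ones (log2 fold change 0.66 ± 0.24, SE). The groups overlapped, since KO replicates 2 and 4 lay below WT replicate 1. Its relative Ero1l, known as a hypoxia-responsive oxidase, stood at 45.2 to 71.5 CPM in KO-labelled tumours and 38.5 to 94.5 CPM in the WT-labelled ones, with the highest value in WT replicate 2. Pdia4 and Pdia6 differed by 0.49 ± 0.20 and 0.44 ± 0.19, P4hb by 0.24 ± 0.14 and Pdia3 by 0.08 ± 0.11 (log2, SE); Pdia3 was −0.10 with library totals.

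In the IRE1 branch the epithelial and the general form of the sensor stood apart. Ern2, which codes for IRE1β of mucous epithelia, was at 12.9, 9.74, 14.9 and 12.1 CPM in KO-labelled replicates 1 to 4, against 32.1, 28.01, 50.1 and 20.7 CPM in the WT-labelled ones. No tumour labelled KO reached the lowest tumour labelled WT. The difference was −1.40 ± 0.26 (log2, SE; edgeR adjusted p = 0.00876), 2.64-fold lower, and it was called in each of the 8 omissions (adjusted p = 0.00515 to 0.0308). Under the epithelial scaling it was −0.52 and not called.

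Mucous and gastric markers moved with Ern2. Of 11, 10 were lower in the KO-labelled tumours, and their mean log2 CPM was 5.15 to 6.19 in those tumours against 6.65 to 7.48 in the WT-labelled tumours. Ctse, Tff2 and Gkn3, the most abundant of them, differed by −0.99, −1.67 and −1.47 (log2). Since each library is a bulk of sorted cells, fewer cells of a type and less RNA per cell cannot be told apart, and the part of these cells in the Ern2 difference was not tested.

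Ern1, which codes for the widely expressed IRE1α, was at 83.9, 83.7, 95.8 and 82.3 CPM in KO-labelled tumours, against 72.8, 78.7, 75.6 and 72.9 CPM in the WT-labelled ones. The groups did not overlap, but the difference of 0.20 ± 0.07 (log2, SE) was not called (edgeR adjusted p = 0.0699). Xbp1, the mRNA that IRE1 splices, was at 658, 620, 724 and 412 CPM in KO-labelled tumours, against 441, 478, 417 and 477 CPM in the WT-labelled ones. KO replicate 4 was the lowest of all 8 and the other 3 were the highest. The difference was 0.41 ± 0.17 (log2, SE, edgeR adjusted p = 0.111). When KO replicate 4 was left out, it was 0.55 and called (edgeR adjusted p = 0.0142). Gene counts do not separate the spliced from the unspliced form.

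The ATF6 branch held 1 gene called higher, where 11.1% of all genes were. Atf6 was at 115, 129, 128 and 136 CPM in KO-labelled replicates 1 to 4, against 117, 103, 92.3 and 97.5 CPM in the WT-labelled ones. The groups overlapped only between KO replicate 1 and WT replicate 1. The difference was 0.31 ± 0.09 (log2, SE; edgeR adjusted p = 0.0383). The call remained without either of those replicates and was lost without any of the other 6 tumours (adjusted p = 0.0245 to 0.102 over the 8 omissions) and with library totals.

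Its relative Atf6b was at 83.6, 88.8, 82.4 and 62.9 CPM in KO-labelled tumours, against 56.9, 63.7, 73.3 and 80.2 CPM in the WT-labelled ones. The groups overlapped, and the difference was 0.21 ± 0.14 (log2, SE; edgeR adjusted p = 0.302). Crebrf, a regulator of stress responses, differed by 0.04 ± 0.14 (−0.13 with library totals).

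The PERK branch showed 1 called gene, and it was lower, where 10.8% of all genes were. Trib3, a pseudokinase and target of ATF4 and CHOP, was at 8.96, 7.56, 7.70 and 8.28 CPM in KO-labelled replicates 1 to 4, against 16.0, 11.3, 16.5 and 12.8 CPM in the WT-labelled ones. All KO-labelled tumours were below all WT-labelled ones. The difference was −0.80 ± 0.15 (log2, SE; edgeR adjusted p = 0.00905), 1.74-fold lower, and it was called in each of the 8 omissions (adjusted p = 0.0102 to 0.0324). Under the epithelial scaling it was 0.058 and not called.

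The kinase and the transcription factors of the branch differed little. Eif2ak3, which codes for PERK, was at 133, 155, 123 and 135 CPM in KO-labelled tumours and at 151, 120, 125 and 121 CPM in the WT-labelled ones (log2 fold change 0.08 ± 0.10, SE; −0.10 with library totals). Atf4 was at 272, 232, 243 and 273 CPM in KO-labelled tumours and at 270, 252, 260 and 259 CPM in the WT-labelled ones (−0.03 ± 0.08; 0.83 with the epithelial scaling). Both genes overlapped between the groups, and ATF4 is controlled mainly at translation, which these data do not measure.

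Ddit3, which codes for CHOP, was at 13.5, 14.0, 14.9 and 13.8 CPM in KO-labelled tumours, against 13.2, 17.4, 14.9 and 11.7 CPM in the WT-labelled ones. The KO-labelled tumours lay within the range of the others, and the difference was −0.03 ± 0.13 (log2, SE; 0.87 with the epithelial scaling). The 95% interval of the log2 difference was −0.15 to 0.31 for Eif2ak3, −0.21 to 0.15 for Atf4 and −0.33 to 0.28 for Ddit3. Chac1 and Asns, both targets of ATF4, differed by 0.23 ± 0.24 and 0.10 ± 0.20 and Ppp1r15a, a phosphatase subunit that reverses PERK action, by 0.33 ± 0.17 (log2, SE; edgeR adjusted p = 0.538, 0.762 and 0.202); Asns was −0.09 with library totals.

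ER-associated degradation extracts misfolded proteins, and 2 of its 7 genes were called higher, where 11.1% of all genes were. Edem1, which trims mannose from misfolded glycoproteins, was at 321, 355, 470 and 272 CPM in KO-labelled replicates 1 to 4, against 259, 225, 202 and 239 CPM in the WT-labelled ones. The groups did not overlap, and KO replicate 3 was the highest. The difference was 0.62 ± 0.17 (log2, SE; edgeR adjusted p = 0.0308), lost without KO replicate 2 or WT replicate 2, 3 or 4 (adjusted p up to 0.0817) and with library totals.

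Derl1 codes for a membrane protein of the retrotranslocation channel. It was at 98.9, 109, 114 and 98.7 CPM in KO-labelled tumours, against 85.4, 79.4, 90.2 and 94.4 CPM in the WT-labelled ones. The groups did not overlap. The difference was 0.27 ± 0.08 (log2, SE; edgeR adjusted p = 0.0440); it remained called without KO replicate 4 or WT replicate 4 and was lost without any of the other 6 tumours (adjusted p = 0.0390 to 0.114) and with library totals.

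Derl3, a relative of Derl1 with high use in secretory cells, varied most of the set within groups, at 18.5, 8.52, 41.1 and 6.60 CPM in KO-labelled tumours and 20.8, 17.4, 9.76 and 3.30 CPM in the WT-labelled ones. KO replicate 3 was highest and WT replicate 4 lowest, and the groups overlapped widely (log2 fold change 0.53 ± 0.67, SE). Sel1l and Syvn1, the core of the main ubiquitin ligase of the pathway, differed by 0.42 ± 0.19 and 0.32 ± 0.17, Edem2, a mannosidase like Edem1, by 0.43 ± 0.18 and Herpud1, which organises the ligase complex, by −0.10 ± 0.17 (log2, SE), none called; Herpud1 was 0.79 with the epithelial scaling. When KO replicate 4 was left out, Syvn1 was 0.45 and called (edgeR adjusted p = 0.0268). Selenok, the gene known before as Selk, was at 45.5 to 53.1 CPM in KO-labelled tumours and 39.97 to 49.7 CPM in the WT-labelled ones. Its log2 fold change of 0.21 ± 0.09 was not called (edgeR adjusted p = 0.129).

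Neither gene of the translocon, which admits new chains into the ER, passed the test. Ssr1 was at 251 to 271 CPM in KO-labelled tumours and 228 to 235 CPM in the WT-labelled ones, without overlap (log2 fold change 0.18 ± 0.07, SE; edgeR adjusted p = 0.0796). Sec61b differed by 0.09 ± 0.09 (−0.09 with library totals).

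**Figure D3:**
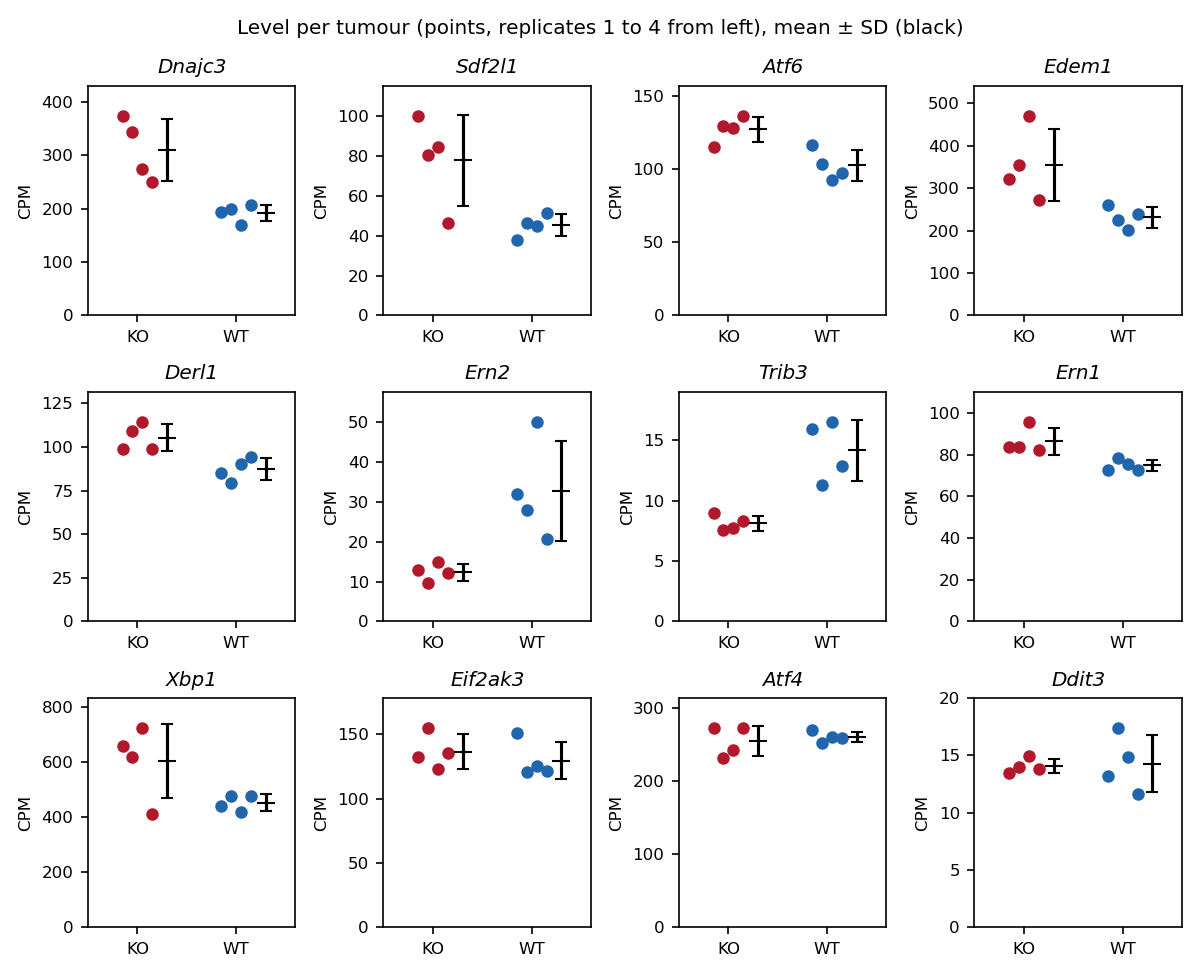
CPM in each tumour for the 7 called genes and 5 further sensors and transcription factors, with KO-labelled tumours left of the WT-labelled ones and the mean ± SD of each group in black (n = 4 each). Ern2 and Trib3 are lower in every tumour labelled KO, while Atf4 and Ddit3 overlap fully between the groups.

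The 4 WT-labelled tumours carry 2 genotypes, which were fitted apart with 1 shared estimate of the spread over 15284 genes. Against the f/+ tumours, 1 gene of the set was higher (Derl1, 0.36, edgeR adjusted p = 0.0451; 6.73% of all genes were higher) and Ern2 and Trib3 were lower (−1.27 and −0.74; 6.6% of all genes). Against the +/+ tumours, Atf6 was higher (0.42, edgeR adjusted p = 0.0476; 3.13% of all genes) and the same pair lower (−1.51 and −0.85; 3.66% of all genes). Both comparisons use the same KO-labelled tumours. Dnajc3 differed by 0.66 and 0.72 in them and was called in neither (edgeR adjusted p = 0.0515 and 0.0554).

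Acinar RNA differed widely between tumours of the same group. Cpa1, the digestive enzyme carboxypeptidase A1, was at 4379, 1055, 2884 and 210 CPM in KO-labelled replicates 1 to 4, against 122, 1173, 37.9 and 98.5 CPM in the WT-labelled ones. KO replicates 1 and 3 were highest, KO replicate 2 and WT replicate 2 lay close together, and KO replicate 4 was closest to WT replicate 1. The difference between the groups was 2.57 ± 1.21 (log2, SE) and was not called (edgeR adjusted p = 0.163). An acinar score, the mean log2 CPM of 22 enzyme genes led by Ctrb1, Pnliprp1 and Prss2, was 10.5, 7.55, 9.83 and 5.21 in the KO-labelled tumours against 4.21, 8.03, 2.69 and 3.87 in the WT-labelled ones. The group difference was 3.59 (exact two-sided permutation p = 0.0857, where 4 against 4 tumours cannot go below 0.0286). The scores spread over 7.86 units with a largest gap of 2.35 between neighbours, and 4 tumours per group are too few for a correlation within each group.

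Most of the folding genes were higher in the tumours with a higher score. Pearson's r was above 0 for 34 of the 39, with a median of 0.71 against 0.021 over all 14728 genes, and 20 had an unadjusted exact permutation p under 0.05 above 0, against 7.81% of all genes. After adjustment over all genes tested none of the set was called in either direction (0.21% of all genes above 0 and 0.0% below; smallest adjusted p in the set 0.201). Cpa1 alone in place of the score gave 20 genes with an unadjusted p under 0.05 as well, and a median r of 0.70. With library totals in place of TMM, r was above 0 for 30 of the 39, with a median of 0.57 against −0.25 over all genes. Tumours labelled KO had higher scores on average, so a difference between groups enters each r.

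Hsp90b1, which codes for the chaperone GRP94, had the highest r, 0.94 (exact permutation p = 0.00233, adjusted p = 0.220; Spearman's rho 0.76, p = 0.0368, adjusted p = 0.394). It was at 1479, 1284, 1434 and 898 CPM in KO-labelled replicates 1 to 4 and at 908, 1157, 920 and 974 CPM in the WT-labelled ones. The order of the KO-labelled tumours was that of their acinar scores, and of the WT-labelled ones the one with the highest score, replicate 2, had most Hsp90b1. Without the 2 tumours farthest from the median score (KO replicate 1 and WT replicate 3) r was 0.92, and with the group means removed it was 0.91.

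Pdia4 (r = 0.93, exact permutation p = 0.00146, adjusted p = 0.201; rho = 0.86) was at 398, 288, 332 and 202 CPM in KO-labelled replicates 1 to 4 and 187, 255, 191 and 234 CPM in the WT-labelled ones. Sel1l (r = 0.90, exact p = 0.00198; rho = 0.93), Hspa5 (r = 0.88, exact p = 0.00724; rho = 0.90) and Manf (r = 0.88, exact p = 0.00484; rho = 0.81) came next. Xbp1 had r = 0.86 (exact p = 0.00975; rho = 0.79). Without KO replicate 1 and WT replicate 3 these 5 kept r of 0.87, 0.91, 0.77, 0.79 and 0.80. With group means removed, an r of at least 0.7 in size was found in 11 of the 39 (28.2%, against 18.6% of all genes).

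**Figure D4:**
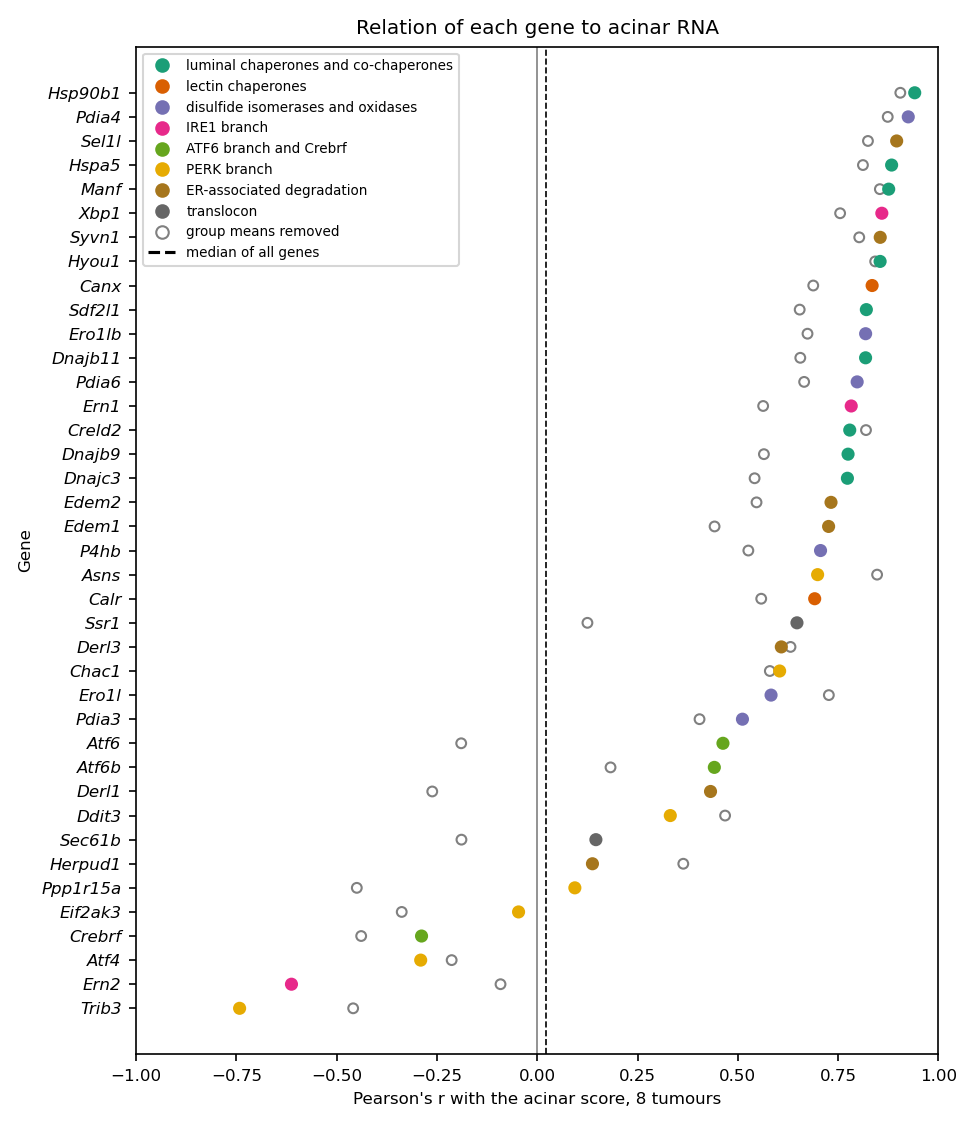
Pearson's r of each gene's log2 CPM with the acinar score over 8 tumours (horizontal axis), ordered by r and coloured by branch, with grey rings for r after removal of group means and a dashed line at the median of all genes (0.021). The 9 luminal chaperones lie from 0.77 to 0.94, while PERK genes reach from −0.74 to 0.70.

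By branch, r ran from 0.77 to 0.94 in the luminal chaperones (median 0.82) and from −0.74 to 0.70 in the PERK branch (median 0.094). The isomerases had a median r of 0.75 and the degradation genes 0.73. Both IRE1 partners, Ern1 and Xbp1, had r of 0.78 and 0.86, while Ern2 was at −0.61. With group means removed these were 0.56, 0.76 and −0.092, and with library totals 0.41, 0.80 and −0.61. Trib3 was the only gene of the set with an unadjusted p under 0.05 below 0 (r = −0.74, exact p = 0.0447), and r was −0.46 with group means removed. Atf4, Eif2ak3 and Ddit3 had r of −0.29, −0.047 and 0.33 (exact p = 0.479, 0.900 and 0.439), and of −0.64, −0.47 and −0.0064 with library totals. Without KO replicate 1 and WT replicate 3, Atf4 was at −0.72 and Ddit3 at 0.74. Asns was the PERK-branch gene with the highest r, 0.70 (exact p = 0.0596), and with group means removed its r was 0.85.

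The 10 genes with the ER stress element shown above had r from 0.61 (Derl3) to 0.94 (Hsp90b1), with a median of 0.81. The 24 genes with a promoter window and no such element had r from −0.74 to 0.93, with a median of 0.63. All PERK-branch genes are among the 24, so the sets differ in branch as well. Between the groups of tumours, 1 of the 10 was called higher (Dnajc3) and none lower. Of the 24, 2 were called higher and 1 lower. Over all genes 11.1% were called higher and 10.8% lower.

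**Figure D5:**
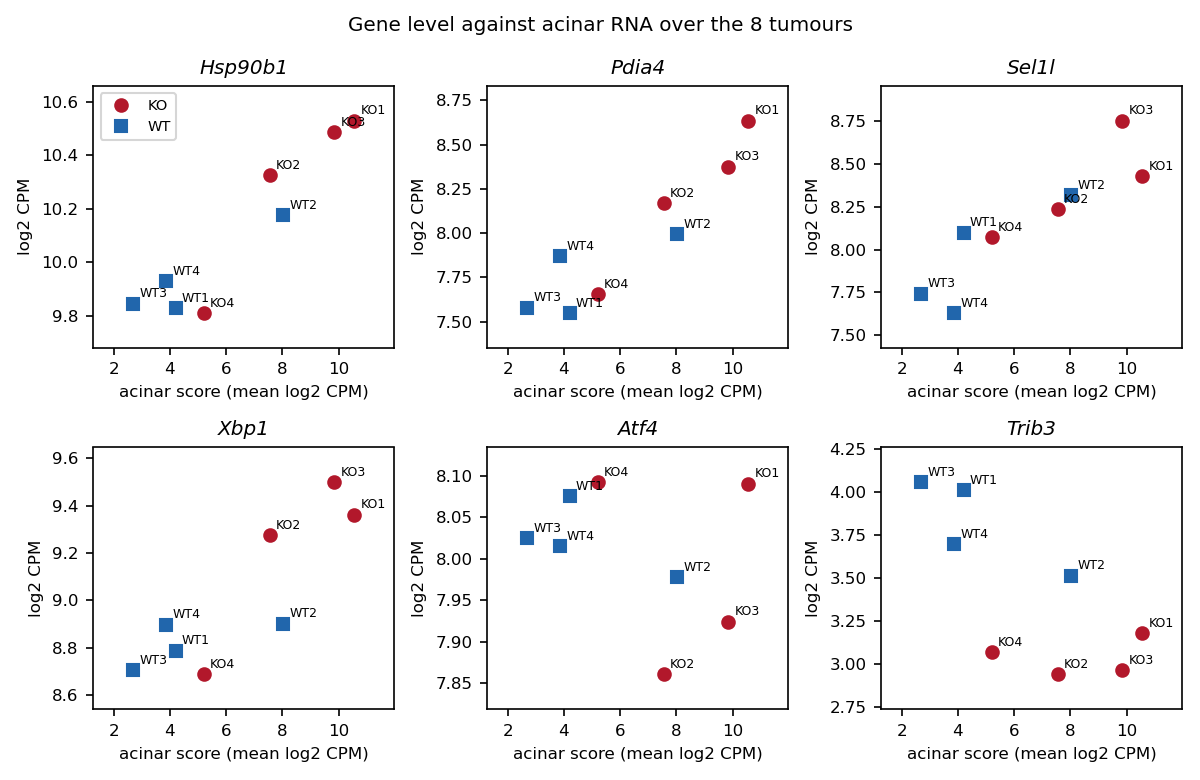
Log2 CPM of 6 genes against the acinar score (mean log2 CPM of 22 enzyme genes), 1 point per tumour (circles labelled KO, squares labelled WT). Hsp90b1, Pdia4, Sel1l and Xbp1 are higher where the score is higher, and KO replicate 4 is the lowest of the KO-labelled tumours in each. Atf4 has an r of −0.29, and Trib3 is lower in every tumour labelled KO.

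A model with both the labelled group and the acinar score gave the slope within groups. No gene of the 39 was called (smallest edgeR adjusted p = 0.174, Pdia4), against 0.346% of all genes with a slope called above 0 and 0.0272% below, among them 20 of the 22 enzyme genes. An unadjusted p under 0.05 was reached by 11 of the 39 (28.2%), all with a slope above 0, and by 14.0% of all genes. The slope of Pdia4 was 0.12 ± 0.03 log2 units per unit of score (SE), that of Creld2 0.19 ± 0.05, of Hyou1 0.15 ± 0.04, of Hspa5 0.12 ± 0.04 and of Xbp1 0.08 ± 0.03. Asns of the PERK branch, also among the 11, had a slope of 0.12 ± 0.03. Slopes in that branch were above 0 for 3 genes and below 0 for 4. For comparison Cpa1 had a slope of 0.85 ± 0.04 log2 units per unit. Without WT replicate 2, Creld2 was called (edgeR adjusted p = 0.0495).

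In the same model no gene of the set was called between the groups, where 1285 of all genes were higher and 1022 lower. Dnajc3 differed by 0.51 (edgeR adjusted p = 0.0823), Ern2 by −1.28 (0.0541) and Trib3 by −0.65 (0.0662), so the directions remained. Hspa5 and Hsp90b1 differed by 0.02 and −0.01 in this model, against 0.47 and 0.36 without the score. Without KO replicates 1 and 3 together, the tumours with most acinar RNA, none of the set was called in either direction, and without KO replicate 1 and WT replicate 2 together Dnajc3, Ern2 and Trib3 were called. KO replicate 4, which had least acinar RNA of its group, was the lowest of the 4 KO-labelled tumours in 29 of the 39 genes (74.4%, against 31.4% of all genes), and WT replicate 2, which had most, was the highest of its group in 16 (41.0%, against 26.3%).

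Antibody-secreting cells also use these genes, and their markers differed between tumours. Jchain, the joining chain of antibodies, was at 630, 436, 2516 and 809 CPM in KO-labelled replicates 1 to 4, against 1403, 546, 363 and 272 CPM in the WT-labelled ones. KO replicate 3 and WT replicate 1 were highest in their groups. Mzb1, a chaperone of plasma and marginal zone B cells, had the same 2 tumours on top, at 91.8 CPM in KO replicate 3 and 48.5 CPM in WT replicate 1. The summed CPM of the 11 plasma and B cell markers was 964 to 3242 in KO-labelled tumours and 991 to 2639 in the WT-labelled ones, with Jchain, Sdc1 and Irf4 the most abundant; no marker was at 0 in any tumour, and 1 of 11, Sdc1, was lower in the KO-labelled tumours.

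Of the 7 degradation genes, 4 had an unadjusted p under 0.05 with Jchain, as had the oxidase gene Ero1lb. Edem2 had r = 0.84 (exact permutation p = 0.00975; rho = 0.81) and Derl3 r = 0.81 (exact p = 0.0147; rho = 0.74) with the log2 CPM of Jchain. Herpud1, Sel1l and Ero1lb had r of 0.73, 0.74 and 0.73 (exact p = 0.0366, 0.0357 and 0.0373). Those 5 of the 39 had an unadjusted p under 0.05, all with r above 0. Over the whole set, r with Jchain was above 0 for 31 genes and below 0 for 8, with a median of 0.21 against 0.024 over all genes. Of all 14728 genes, 221 had such a p above 0 and 137 below. No gene of the 14728 was called after adjustment (0.0% in each direction, adjusted p = 0.999 in the set). Without KO replicate 3 and WT replicate 1 the r of Edem2 was 0.59, of Derl3 0.53, of Sel1l 0.72, of Ero1lb 0.49 and of Herpud1 0.10. All 5 were lower than over the 8 tumours, and the relation of Herpud1 rests on those tumours. A slope on the plasma and B cell score, fitted with group and acinar score, was called for no gene (0.0% in each direction). An unadjusted p under 0.05 was reached by 541 genes. The slope was above 0 for 21 of the 39 and below 0 for 18. All 7 degradation genes were above 0. Below 0 were 7 of the 9 luminal chaperones, the 2 lectin chaperones and 5 of the 6 isomerases and oxidases.

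Other genes of these pathways, from lists that hold none of the 39, are read against the 11.1% of all genes called higher and the 10.8% called lower. Of 27 further ATF4 targets 2 were lower and none higher: Vldlr, a lipoprotein receptor, at −1.21 ± 0.21, and Ddit4, an inhibitor of mTORC1 signalling, at −0.65 ± 0.13 (log2, SE). The median of the list was 0.08. Slopes of this list on the acinar score were above 0 for 20 genes and below 0 for 7, none called. Over all genes 7170 were above 0 and 7558 below. Of 7 eIF2α kinases and related subunits 1 was higher (Nck1, 0.54 ± 0.11). Of 28 genes of the secretory machinery 1 was lower, Kdelr3, a receptor that returns ER proteins from the Golgi (−0.72 ± 0.12), with a list median of 0.09.

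Among 16 further disulfide and proline isomerases 3 were higher, Erp29 (0.58 ± 0.10), Prdx4 (0.52 ± 0.14) and Tmx1 (0.28 ± 0.08, log2, SE), with a list median of 0.20. Pdia2, the isomerase of the exocrine pancreas, was the gene of this list whose slope on the acinar score was called, at 0.90 log2 units per unit (edgeR adjusted p = 5.74e-06). Of 14 further degradation genes 3 were higher, Aup1 (0.30 ± 0.07), Os9 (0.27 ± 0.08) and Ube2j1 (0.33 ± 0.10). Of 7 membrane-bound CREB3 transcription factors and proteases 3 were lower, Creb3l4 (−1.36 ± 0.17), Creb3l1 (−0.79 ± 0.17) and Creb3l2 (−0.38 ± 0.11, log2, SE), and Creb3l4 is also one of the mucous markers. Of 12 cytosolic heat shock genes 1 was lower, the co-chaperone Bag3 (−0.35 ± 0.10), with a list median of −0.0097. All of these directions are with TMM scaling, and the shifts under other scalings are those given above.

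The remaining marker lists were compared between the groups to show what else the sorted cells held. Of 9 ductal markers 7 were lower in the KO-labelled tumours, among them Muc1 (−0.98) and Tspan8 (−0.82), while Spp1, the most abundant, differed by −0.08 (log2). Of 8 leukocyte markers 7 were higher (Laptm5 0.90, Lcp1 0.70, Ptprc 0.73). Of 10 fibroblast markers 2 were higher, though Col3a1, Col1a1 and Col1a2 were not called, and of 6 endothelial markers tested 1 was (Eng 1.04; Pecam1 0.20, Kdr 0.09). None of 11 endocrine markers was called (Chgb −1.77, Ins2 1.08, Chga −1.50), none of 5 acinar regulators (Gata4 −0.16, Nr5a2 0.68, Bhlha15 1.17), and none of 13 genes induced by tissue dissociation (Fos 0.09, Zfp36 0.54, Egr1 0.35). All 13 dissociation genes had a log2 fold change above 0, with a median of 0.30 against 0.011 over all genes. The part of these marker lists in the differences of the folding genes was not tested.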

How the data were processed

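RNA-seq was made from EpCAM-positive cells of 8 mouse pancreatic tumours, 4 labelled KO and 4 labelled WT, with groups taken from the labels. Per the submitters' processing notes the tools were FastQC 0.11.2, STAR 2.4.0k, HOMER and edgeR 3.6.8, with the build mm10. Per the file headers, HOMER counted reads over the exons of mm10 RefSeq genes with a plus-strand setting and kept 1 transcript per gene, which gave raw counts. The authors also deposited FPKM, normalised to a total of 1000000 per the file headers; 7 of the 39 genes have another transcript there than in the count table, and these values were used for levels and, as log2 values made here from the deposited FPKM, for an alternative test. Overlapping and antisense genes may share reads.

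Counts were filtered with filterByExpr (minimum count 10, total 15), scaled by TMM and tested with edgeR 4.0.16 (quasi-likelihood, Benjamini-Hochberg adjusted p under 0.05 over all genes) in R 4.3.3. Limma 3.58.1 and DESeq2 1.42.0 served as alternatives. CPM are TMM-scaled. Correlations over 8 tumours used all 40320 pairings for each of the 14728 genes. The script was tested on simulated data. Counts per tumour ranged from 14938875 to 22698340, which limits precision for genes of few counts. Nothing says that any tumour is more than a single sample of its own mouse. The tests thus weigh differences against the spread between these tumours. The genes and lists were chosen with earlier results of these data known. Genes are named by a rule: all members, with values in every tumour for those called and for the sensors and transcription factors; Cpa1; up to 4 called genes of each pathway list; and the 3 most abundant of each marker list. Members shown for a high correlation were chosen after their values were seen. Of the count and FPKM tables, 0 columns belong to other samples. RefSeq tables gave the promoter windows and their bases. No other genome sequence and no protein sequence was used here. One further allele carried by all the mice is not reported here.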

Additional observations from a re-analysis of the deposited data

Results flagged for a closer look

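In 4 of 102 groups of 4 tumours, 1 tumour stood apart from the other 3 (Dixon's test at 95%), where chance flags about 1 in 20 groups. Ern1 was at 95.8 CPM in KO replicate 3, against 82.3 to 83.9 CPM in the other tumours labelled KO. Pdia3 was at 740 CPM in WT replicate 1, against 843 to 862 CPM in the other tumours labelled WT. Eif2ak3 was at 151 CPM in WT replicate 1, against 120 to 125 CPM in the others. The mean log2 CPM of the 5 acinar regulators was 4.23 in WT replicate 2, against 1.69 to 1.76 in the other tumours labelled WT.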

How the results depend on the processing

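No paired analysis was possible because the labels give the tumours no shared replicate numbers. Against 5 genes called higher and 2 lower, RLE size factors gave 5 and 2, no filter 4 and 2, and DESeq2 gave 11 and 2. Library totals, and limma on log2(FPKM + 1) or log2(FPKM + 0.1), each gave 1 higher (Dnajc3) and 2 lower, and scaling to the epithelial list gave 37 and 0. With f/+ tumours alone as controls 0 were higher and 2 lower, and with +/+ tumours alone 1 and 2. With the acinar score as covariate none was called in either direction (0 and 0), and likewise with the macrophage score, where no gene of all tested was called. Chosen after seeing the data, the plasma and B cell score as covariate gave 2 and 2, omission of KO replicate 3 and WT replicate 1 gave 2 and 1, and omission of KO replicates 1 and 3 gave 0 and 0. Omission of KO replicate 1 and WT replicate 2 gave 1 and 2. With 1 tumour left out the counts were 1 to 14 higher and 2 lower, and 0 to 1 for a slope on the acinar score above 0. The acinar score difference was 2.82 to 4.69 over these omissions. The causes were not tested.

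The following log2 differences, KO-labelled minus WT-labelled, changed sign under an alternative. Library totals gave −0.10 for Pdia3, −0.13 for Crebrf, −0.099 for Eif2ak3, −0.090 for Asns and −0.092 for Sec61b. On log2(FPKM + 1) these 5 were −0.097, −0.12, −0.092, −0.11 and −0.089, and on log2(FPKM + 0.1) −0.098, −0.15, −0.097, −0.12 and −0.091. The epithelial scaling gave 0.91 for Ero1l, 0.83 for Atf4, 0.87 for Ddit3, 0.058 for Trib3 and 0.79 for Herpud1. Against f/+ tumours Crebrf was −0.0034, Asns −0.021 and Derl3 −0.037, and against +/+ tumours Ero1l was 0.18, Ddit3 0.081 and Herpud1 0.074. The acinar covariate gave −0.0080 for Hsp90b1, −0.21 for Hyou1, −0.12 for Manf, −0.40 for Creld2, 0.00027 for Atf4, −0.12 for Chac1, −0.37 for Asns, −0.80 for Derl3 and −0.053 for Syvn1. The macrophage covariate gave 0.80 for Ero1l, 0.074 for Ern2, −0.16 for Eif2ak3, 0.67 for Ddit3, 0.50 for Herpud1 and −0.013 for Sec61b. The plasma covariate gave −0.012 for Crebrf and −0.0075 for Derl3. Without KO replicate 1 and WT replicate 2, Ero1l was 0.34, Ddit3 0.10 and Sec61b −0.0086; without KO replicate 3 and WT replicate 1, Atf4 was 0.013. Without KO replicates 1 and 3, Hyou1 was −0.023, Creld2 −0.26, Chac1 −0.052, Asns −0.31 and Derl3 −0.77. With 1 tumour left out, Asns ran from −0.060 to 0.23, Crebrf from −0.039 to 0.15, Atf4 from −0.072 to 0.016, Derl3 from −0.19 to 0.87, Ero1l from −0.18 to 0.30, Herpud1 from −0.25 to 0.0092 and Ddit3 from −0.11 to 0.084.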
